A study of Equus caballus with 4 samples.

Results

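The transcripts of 10 chaperone genes were examined in differentiating equine satellite cells: the HSP90 proteins HSP90AA1 and HSP90AB1, the HSP70 protein HSPA8, the HSP110 proteins HSPA4 and HSPH1, the mitochondrial chaperones HSPA9, HSPD1 and HSPE1, the co-chaperone DNAJB1 and the transcription factor HSF1. Every gene probe of the array whose annotated gene name was exactly one of these symbols was taken, whatever its value. This gave 26 probes for 7 genes, of 43603 gene probes with 24998 names. No probe carried the name HSPE1, DNAJB1 or HSF1, so that 3 of the 10 genes had no member probe.

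Satellite cells are the stem cells of skeletal muscle, here grown from the m. semitendinosus of the horse and studied on day 3 of differentiation. The treated cultures were pre-incubated for 24 h with gamma-oryzanol (GO, ferulic acid esters of sterols that occur in rice bran oil) at 0.125 µM and exposed to hydrogen peroxide (H2O2) at 3 mM during the last 1 h. The control cultures were kept without GO. Whether H2O2 was added to them is not said in the labels, while the study's methods describe them as exposed to it, so that the comparison addresses the effect of GO given before the oxidant. RNA of 4 treated cultures and 4 control cultures was hybridised to 4 two-colour Agilent horse arrays of 1 slide, with the treated sample labelled red (Cy5) and the control sample green (Cy3) on every array. The dyes were never swapped, and dye and treatment cannot be told apart. The labels call the arrays biological replicates, but the study worked with 1 selected primary cell line, so that the p-values may measure the spread between cultures of that line and not between horses.

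HSP90 is a dimeric ATPase that completes the folding of kinases, steroid receptors and other client proteins. HSP70 binds unfolded stretches of protein in cycles of ATP hydrolysis, which J-domain proteins start and nucleotide exchange factors of the HSP110 and BAG families end. In mitochondria HSPA9 draws in and folds imported proteins, and HSPD1 with its lid HSPE1 encloses them for folding. HSF1 is the factor that drives transcription of many of these genes after heat or oxidative stress. HSP90 and its partner UNC45B are also known for the folding of myosin in differentiating muscle.

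All 26 probes were well above background on the 4 arrays in both channels, and no spot of theirs was saturated (0) or marked as an outlier (0). Values are log2 ratios of treated over control signal after loess normalisation within each array, so that a negative value means less signal with GO and H2O2, and errors are SDs over the 4 arrays. A probe is called lower or higher when limma's adjusted p (Benjamini-Hochberg over the 24229 probes tested) was under 0.05. Over all arrays, 54.9% to 61.4% of gene spots were well above background, and Pearson's r between the ratios of 2 arrays ran across probes from 0.174 (replicates 2 and 3) to 0.697 (replicates 3 and 4). In RNA from a culture, fewer cells of a type and less RNA per cell cannot be told apart.

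The chaperone probes had small ratios that were nearly all on the side of less signal with GO and H2O2. Of the 26 probes, 25 had a negative mean ratio (18 when each array was centred on its median instead of normalised by loess), 22 were negative on all 4 arrays, 11 (42.3%) were called lower and 0 were called higher by limma, also at an unadjusted p under 0.05 (0 probes). Among all tested probes 7.59% were called lower, 9.49% were called higher, 21.2% were negative on all 4 arrays and 22.6% were positive on all 4. The member genes were chosen with earlier results of these data known, so that a count above these shares describes the list and is no test. The shares are not matched for signal, and the member genes were bright at their brightest probes. The brightest probe of each gene lay at signal percentile 79.4 (HSPH1) to 98.3 (HSP90AB1) of the tested probes. Other member probes were dimmer, down to percentile 38.7 (HSPA4 A_69_P102326), and the 5 overlapping HSPA9 probes lay at 61.8 to 66.3. None of the 11 calls reached a fold change of 1.3, which with the adjusted p 1.42% of all probes did. The 1 positive mean, that of the HSPD1 probe A_69_P042787, was 0.03 ± 0.13 (adjusted p = 0.738). The 26 probes are not independent, because 15 of them lie in 3 sets of overlapping probes. With the overlapping probes averaged, 5 of 14 target sites (35.7%) in 4 genes were called lower.

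At the brightest probe of each gene, HSP90AA1, HSPH1 and HSPD1 were called lower (3 of 7 genes, 42.9%), and HSPA9, HSPA8, HSPA4 and HSP90AB1 were not. The median ratio over the 7 genes was −0.20, −0.15, −0.17 and −0.16 on replicates 1 to 4, while the median over all tested probes was between −0.01 and 0.01 on each array. The calls depended on some of the settings. With each array centred on its median instead of loess, 0 of the 26 probes were called by limma (0 also at an unadjusted p under 0.05). Leaving out replicate 1, 3 or 4 left 0 calls each, with 16, 19 and 15 probes under an unadjusted p of 0.05, and leaving out replicate 2 left 5. The fit without pairing of the channels by array and the methods' t-test also gave 0 calls (13 and 18 unadjusted), while a running median over signal in place of loess gave 10 and Agilent's processed signals gave 6. The calls over all probes were lost in the same settings. From 4137 they fell to 2, 38 and 0 without replicate 1, 3 and 4, and to 12 with median centring. Without pairing they numbered 594, and by the methods' t-test 5.

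**Figure D1:**
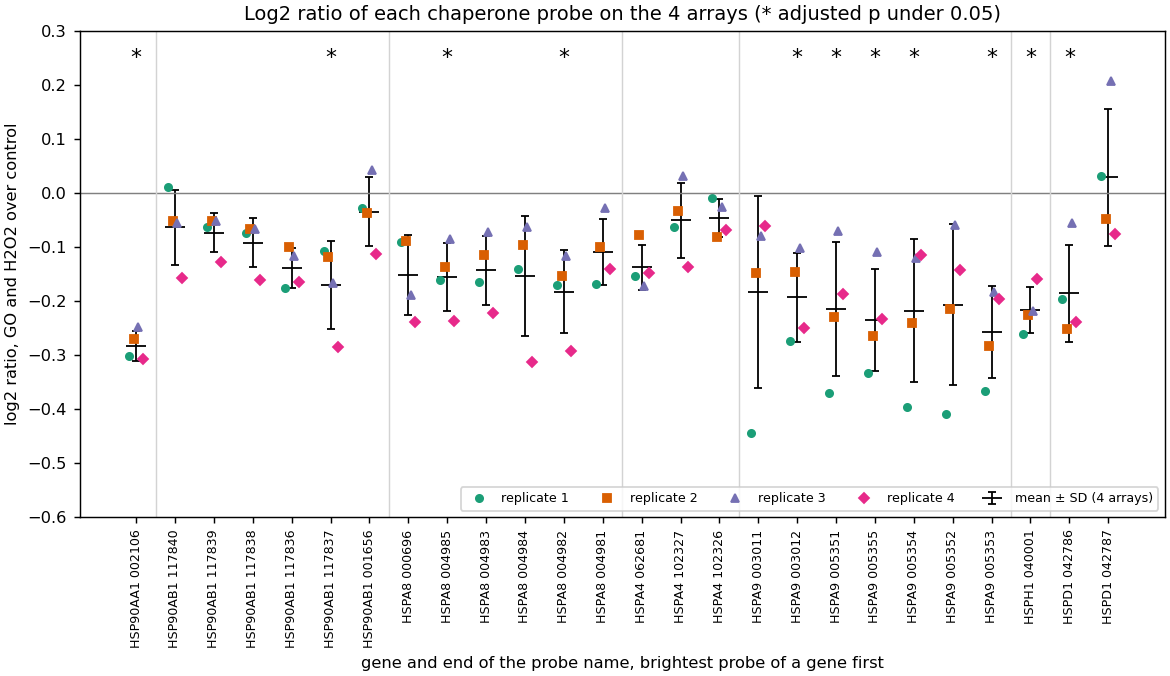
Log2 ratio of treated over control signal (vertical axis) of the 26 chaperone probes (horizontal axis, grouped by gene) on each of the 4 arrays (coloured points), with the mean and SD (black). Of the 26 means 25 lie below 0 (18 with median centring), and stars mark the 11 probes with an adjusted p under 0.05.

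HSP90AA1, the stress-inducible cytosolic HSP90, had 1 probe, and it was the member with the lowest and least variable ratio. The probe A_69_P002106 matched chr24:43295683-43296020 (EquCab1, minus strand), a span of 338 bases for 60 probe bases, so that its match is interrupted in the genome. HSP90AB1, the constitutive paralog, had 6 probes, of which A_69_P001656 likewise matched an interrupted stretch (chr20:36563044-36563384, plus strand, 341 bases). These 2 probes are shown, 5′ to 3′, as the member with the lowest ratio and the HSP90AB1 probe with the mean closest to 0, with the letters as the scanner files list them. The brightest HSP90AB1 probe, whose ratio is set against HSP90AA1 further on, is another one.
HSP90AA1 A_69_P002106: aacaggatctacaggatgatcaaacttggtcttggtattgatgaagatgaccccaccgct
HSP90AB1 A_69_P001656: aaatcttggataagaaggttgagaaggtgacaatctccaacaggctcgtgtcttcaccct

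The normalised log2 signal of HSP90AA1 was 13.40, 13.42, 13.56 and 13.31 in the control channel of replicates 1 to 4, and 13.10, 13.14, 13.31 and 13.00 in the treated channel. The treated signal was the lower one on each array, although the ranges of the channels over the arrays met. The ratios were −0.30, −0.27, −0.25 and −0.31, with a mean of −0.28 ± 0.03 (n = 4 arrays, limma adjusted p = 0.0153), so that HSP90AA1 fell by 17.8%. Without replicate 1, 3 or 4 the adjusted p was 0.0820, 0.0581 and 0.0763, while the mean stayed between −0.29 and −0.27. With median centring the ratios spread from −0.63 (replicate 1) to 0.06 (replicate 2), with a mean of −0.24 ± 0.31 (adjusted p = 0.783).

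The brightest HSP90AB1 probe, A_69_P117840 (chr20:36564067-36564126, plus strand), had control signals of 16.11, 16.09, 16.01 and 15.92 and treated signals of 16.12, 16.04, 15.95 and 15.76 on the log2 scale. Its ratios were 0.01, −0.05, −0.06 and −0.16, with a mean of −0.06 ± 0.07 (adjusted p = 0.324). It had both signs, and replicate 4 was the lowest. The probe A_69_P001656 shown above had ratios of −0.03, −0.04, 0.04 and −0.11 (mean −0.03 ± 0.06, adjusted p = 0.589).

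The other 4 HSP90AB1 probes overlap A_69_P117840, each shifted by 1 base from the next, so that the 5 cover 64 bases. A_69_P117839 had ratios of −0.06, −0.05, −0.05 and −0.13 (mean −0.07 ± 0.04) and A_69_P117838 ratios of −0.07, −0.07, −0.07 and −0.16 (mean −0.09 ± 0.05). A_69_P117836 had ratios of −0.18, −0.10, −0.12 and −0.17 (mean −0.14 ± 0.04, adjusted p = 0.0515). A_69_P117837 was the HSP90AB1 probe called lower, with ratios of −0.11, −0.12, −0.17 and −0.29 (mean −0.17 ± 0.08, adjusted p = 0.0482). Probes that share at least 56 of 60 bases thus fell on both sides of the threshold, and their average, −0.11 ± 0.05, had an adjusted p of 0.104.

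Between the paralogs, the ratio of HSP90AA1 was below that of the brightest HSP90AB1 probe by −0.31, −0.22, −0.19 and −0.15 on replicates 1 to 4. The mean difference was −0.22 ± 0.07, with the same sign on 4 of 4 arrays. Its size depends on the HSP90AB1 probe chosen. Among the overlapping probes the mean ran from −0.06 at the brightest (A_69_P117840, mean log2 signal 16.00) to −0.17 at the dimmest (A_69_P117837, 15.61). The exact sign-flip permutation test gave a two-sided p of 0.125, the smallest that 4 arrays allow. The direction of HSP90AB1 also depended on the scaling: with median centring all 6 of its probes had means above 0 (0.01 to 0.13).

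**Figure D2:**
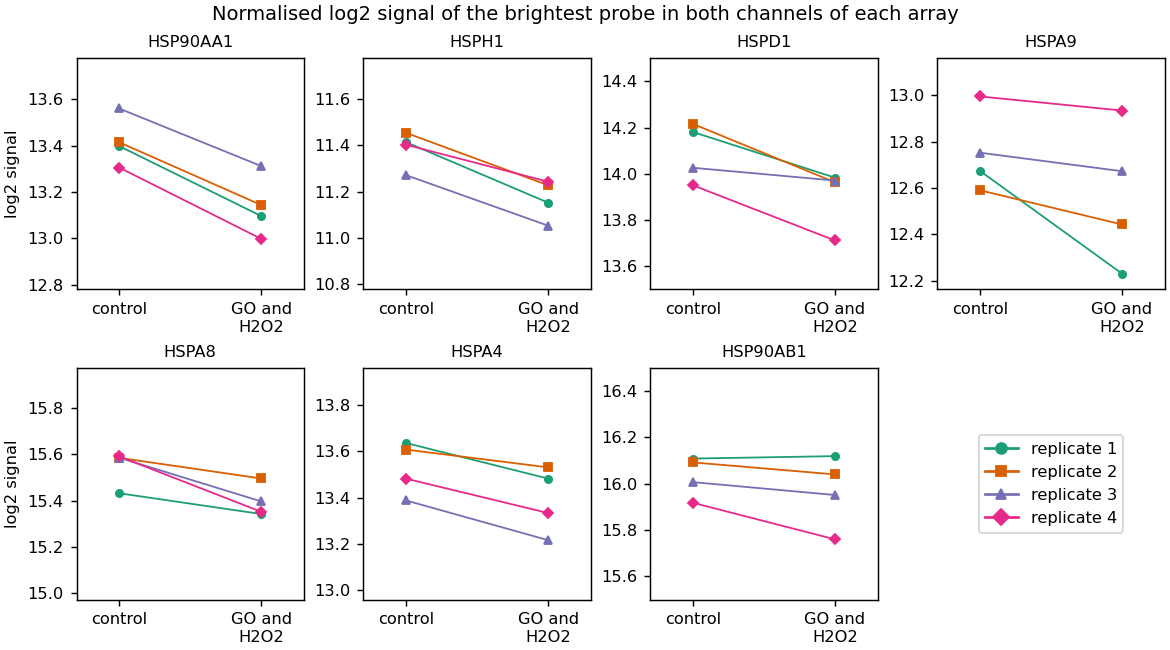
Normalised log2 signal (vertical axis) of the brightest probe of each of the 7 genes in the control and the treated channel, with a line for each array. The vertical scale covers the same range of log2 units in each panel. Every gene but HSP90AB1 falls on each array, while HSP90AB1 is level on replicate 1 and lowest on replicate 4.

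HSPA8, the constitutive cytosolic HSP70, had negative mean ratios at its 6 probes, of which 2 were called lower and 4 were not (adjusted p from 0.0394 to 0.113). The brightest, A_69_P000696 (chr7:26910576-26910635, minus strand), had control signals of 15.43, 15.58, 15.58 and 15.59 and treated signals of 15.34, 15.50, 15.40 and 15.35. The ratios were −0.09, −0.09, −0.19 and −0.24, with a mean of −0.15 ± 0.07 (adjusted p = 0.0588). Replicates 1 and 2 were thus close to each other, and replicates 3 and 4 were lower. With median centring its mean was 0.02.

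The other 5 HSPA8 probes overlap within 64 bases (chr7:26912605-26912668, minus strand). A_69_P004985 had ratios of −0.16, −0.14, −0.08 and −0.24 (mean −0.16 ± 0.06, adjusted p = 0.0497), and A_69_P004982 had ratios of −0.17, −0.15, −0.12 and −0.29 (mean −0.18 ± 0.08, adjusted p = 0.0394). These 2 were called lower. A_69_P004983, A_69_P004984 and A_69_P004981 had means of −0.14, −0.15 and −0.11 and adjusted p-values of 0.0610, 0.0848 and 0.113. The average of the 5 was −0.15 ± 0.07 (adjusted p = 0.0598), a value close to that of the separate probe. Replicate 3 was the highest array at all 5, and replicate 4 the lowest at all but A_69_P004981.

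HSPA4 and HSPH1 belong to the HSP110 family, which releases ADP from HSP70. HSPH1 was called lower and HSPA4 was not. HSPH1 had 1 probe, A_69_P040001 (chr17:10389300-10389359, minus strand), with control signals of 11.41, 11.45, 11.27 and 11.40 and treated signals of 11.15, 11.23, 11.05 and 11.24. The treated range lay below the control range. The ratios were −0.26, −0.23, −0.22 and −0.16, with a mean of −0.22 ± 0.04 (adjusted p = 0.0220), so that HSPH1 fell by 13.9%. As for HSP90AA1, the call was lost without replicate 1, 3 or 4 (adjusted p = 0.0989, 0.0671 and 0.0822) and with median centring (0.791), where the mean was −0.23.

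The brightest HSPA4 probe, A_69_P062681 (chr14:41816722-41816781, minus strand), had control signals of 13.64, 13.61, 13.39 and 13.48 and treated signals of 13.48, 13.53, 13.22 and 13.33. Its ratios were −0.15, −0.08, −0.17 and −0.15, with a mean of −0.14 ± 0.04 (adjusted p = 0.0548). Its sign was the same on each array, and its adjusted p was just above the threshold. A further 2 HSPA4 probes lie end to end in the genome (chr14:41828773-41828892, minus strand), and are shown, 5′ to 3′, because neighbouring stretches of 1 transcript gave like ratios that were closer to 0 than that of the brightest probe.
HSPA4 A_69_P102327: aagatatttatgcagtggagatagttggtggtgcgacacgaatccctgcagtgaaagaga
HSPA4 A_69_P102326: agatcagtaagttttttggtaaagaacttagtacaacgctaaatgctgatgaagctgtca

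A_69_P102327 had ratios of −0.06, −0.03, 0.03 and −0.14 (mean −0.05 ± 0.07, adjusted p = 0.430). A_69_P102326 had ratios of −0.01, −0.08, −0.02 and −0.07 (mean −0.05 ± 0.04, adjusted p = 0.417). HSPA4 was the measured gene without a lowered probe.

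HSPA9 (mortalin), the mitochondrial HSP70, had 7 probes, all negative on all 4 arrays and all lowest on replicate 1. The 5 called lower had means from −0.26 to −0.19. A set of 5 overlapping probes covers 64 bases within an interrupted match (chr14:37225155-37226099, plus strand, 941 bases for each probe). The 3 below are shown because they differ only in their ends and still differed in adjusted p; the capitals mark the 56 bases that all 3 share, 5′ to 3′.
HSPA9 A_69_P005355: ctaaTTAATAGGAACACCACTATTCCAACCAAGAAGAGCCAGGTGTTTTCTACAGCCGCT
HSPA9 A_69_P005353: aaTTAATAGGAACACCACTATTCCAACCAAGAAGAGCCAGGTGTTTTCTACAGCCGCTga
HSPA9 A_69_P005351: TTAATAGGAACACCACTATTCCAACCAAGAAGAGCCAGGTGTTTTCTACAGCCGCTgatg

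A_69_P005353 had ratios of −0.37, −0.28, −0.18 and −0.20 (mean −0.26 ± 0.09, adjusted p = 0.0218). A_69_P005355 had ratios of −0.33, −0.27, −0.11 and −0.23 (mean −0.24 ± 0.09, adjusted p = 0.0279), and A_69_P005351 ratios of −0.37, −0.23, −0.07 and −0.19 (mean −0.21 ± 0.12, adjusted p = 0.0440). The means of the 3 thus lay within the spread over the arrays. A_69_P005354 had ratios of −0.40, −0.24, −0.12 and −0.11 (mean −0.22 ± 0.13, adjusted p = 0.0463), and A_69_P005352, the 1 probe of the 5 without a call, ratios of −0.41, −0.22, −0.06 and −0.14 (mean −0.21 ± 0.15, adjusted p = 0.0629). The average of the 5 was −0.23 ± 0.11 (adjusted p = 0.0361).

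The other 2 HSPA9 probes lie end to end in the genome. A_69_P003012 (chr14:37228777-37228836, plus strand) had ratios of −0.27, −0.15, −0.10 and −0.25 (mean −0.19 ± 0.08, adjusted p = 0.0372). The brightest HSPA9 probe, A_69_P003011 (chr14:37228837-37228896), had control signals of 12.67, 12.59, 12.75 and 13.00 and treated signals of 12.23, 12.44, 12.67 and 12.93. Its ratios were −0.44, −0.15, −0.08 and −0.06 (mean −0.18 ± 0.18, adjusted p = 0.110), the widest spread of the 26 probes. Replicate 1 decided its mean, which was −0.10 without that array.

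HSPD1 (HSP60), the chaperonin of the mitochondrial matrix, had 2 probes that disagreed. The brighter, A_69_P042786 (chr18:61300211-61300270, minus strand), had control signals of 14.18, 14.22, 14.03 and 13.95 and treated signals of 13.98, 13.96, 13.97 and 13.71. Its ratios were −0.20, −0.25, −0.06 and −0.24, with a mean of −0.19 ± 0.09 (adjusted p = 0.0431). The other, A_69_P042787 (chr18:61300272-61300331), is separated from the first by 1 base and had ratios of 0.03, −0.05, 0.21 and −0.08 (mean 0.03 ± 0.13, adjusted p = 0.738). It was the 1 chaperone probe with a positive mean, which became −0.03 without replicate 3. Both probes were highest on replicate 3.

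Ordered by the mean ratio of the brightest probe, the genes ran from HSP90AA1 through HSPH1, HSPD1, HSPA9, HSPA8 and HSPA4 to HSP90AB1. Of the 6 pairs of neighbours in this order, HSP90AA1 and HSPH1 differed by more than the SD of their difference (−0.07 ± 0.06, negative on 4 of 4 arrays, exact sign-flip p = 0.125, without adjustment over the pairs). The other 5 pairs did not. The order was taken from these same means, which fixed the sign of each mean difference, and 4 arrays allow no p below 0.125. The sign-flip test therefore cannot decide whether HSP90AA1 stands apart from HSPH1. The difference between these 2 genes was −0.04, −0.04, −0.03 and −0.15 on replicates 1 to 4, and thus widest on replicate 4. With median centring their means were −0.24 (HSP90AA1) and −0.23 (HSPH1). The arrays also differed by gene: replicate 1 was the lowest array at 7 of 7 HSPA9 probes, while replicate 4 was the lowest at 5 of 6 HSP90AB1 probes and 5 of 6 HSPA8 probes, many of which overlap. Over the 26 probes, replicate 3 was the highest array at 17.

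**Figure D3:**
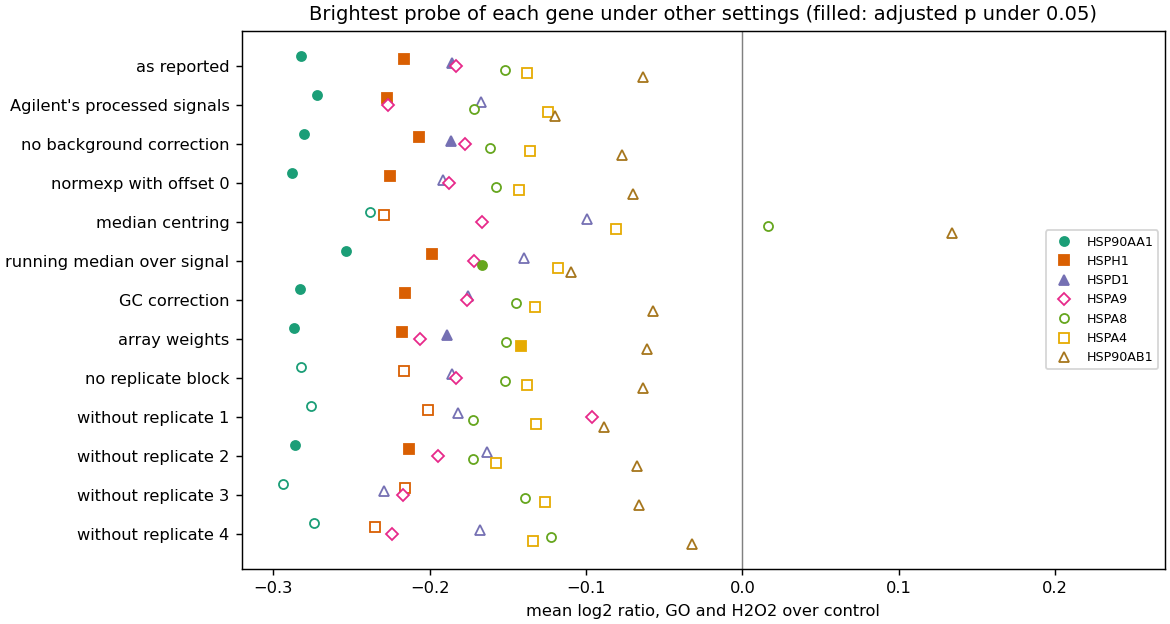
Mean log2 ratio (horizontal axis) of the brightest probe of each of the 7 genes as reported and under 12 other settings (vertical axis), filled where the adjusted p was under 0.05. HSP90AA1 and HSPH1 keep means below −0.19 in each row, HSP90AB1 and HSPA8 lie above 0 with median centring, and no point is filled with median centring, without pairing by array, or without replicate 1, 3 or 4.

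For DNAJB1, the J-domain partner of HSP70, and HSF1, the array holds probes that name the gene in their description and not in their gene name. They are outside the rule and were looked up afterwards. The DNAJB1 probe A_69_P069686 had ratios of −0.04, 0.08, −0.01 and −0.07 (mean −0.01 ± 0.06, adjusted p = 0.888). The HSF1 probe A_69_P119396 had ratios of −0.18, 0.06, 0.02 and 0.14 (mean 0.01 ± 0.14, adjusted p = 0.915), and A_69_P045071 ratios of 0.00, 0.02, −0.04 and −0.11 (mean −0.03 ± 0.06, adjusted p = 0.582). Each had both signs among the arrays, and none was called.

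The rest of the HSP90, HSP70 and mitochondrial machinery was counted in a list of 57 genes, of which 48 had a probe and 45 were tested at their brightest probe. Of these, 7 were called lower (15.6%), 5 were called higher and 33 were not called, with a median ratio of −0.03. The shares over all tested probes were those given above, 7.59% lower and 9.49% higher. They count probes and not genes at their brightest probe, and the wider list too was chosen with earlier results known. The calls of the wider list went in both directions, and they too were lost (0 genes) with median centring and without replicate 1, 3 or 4, with 2, 16, 24 and 20 genes at an unadjusted p under 0.05.

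Among the 13 co-chaperones of HSP90, 2 were lower and 1 was higher. CHORDC1, a zinc-binding HSP90 co-chaperone, fell by 0.45 ± 0.13 on the log2 scale (adjusted p = 0.0152), and its other probe had a mean of −0.40 ± 0.10 (adjusted p = 0.0139). FKBP5, a co-chaperone of steroid receptor complexes, was higher at its brightest probe (0.36 ± 0.22, adjusted p = 0.0335) and at a probe that overlaps it (0.36 ± 0.18, adjusted p = 0.0250), and lower at a probe elsewhere in the gene (−0.27 ± 0.10, adjusted p = 0.0218). Its direction therefore differed between probes. TRAP1, the mitochondrial HSP90 and the 1 tested gene of its class, had a mean of −0.04 ± 0.08 (adjusted p = 0.518).

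All 6 other HSP70 genes tested had negative means, with median centring too, and 2 of the 6 were called lower. Their median was −0.13 as reported, against 0.003 over all tested probes. Of the 6, HSPA1L and HSPA6 were dim, at signal percentiles 2 and 18.5 of the tested probes. HSPA4L, also counted here, is a relative of the HSP110 protein HSPA4. HSPA14, a ribosome-associated HSP70, fell by 0.26 ± 0.05 on the log2 scale (adjusted p = 0.0184). HSPA1L, HSPA4L and the stress-inducible HSPA6 and HSPA1A are named here after their values were seen. HSPA6 fell by 0.20 ± 0.09 (adjusted p = 0.0384), and HSPA1A had a mean of −0.16 ± 0.16 (adjusted p = 0.131).

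Among 10 J-domain proteins, 1 was lower and 1 was higher, the latter being DNAJA4 (0.22 ± 0.10, adjusted p = 0.0327). Of 6 co-factors of HSP70, 1 was lower and 2 were higher. STUB1 (CHIP), the ubiquitin ligase that marks chaperone clients, rose by 0.25 ± 0.08 (adjusted p = 0.0221). BAG1, a nucleotide exchange factor of HSP70, rose by 0.20 ± 0.03 (adjusted p = 0.0248), whereas its relative BAG4 fell by 0.20 ± 0.07 (adjusted p = 0.0306) at its brighter probe and had a mean of −0.08 ± 0.06 (adjusted p = 0.214) at the other.

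Of 7 mitochondrial co-factors and proteases, 1 was lower and 1 was higher. DNAJC19, a J-domain protein of the import motor in which HSPA9 works, fell by 0.21 ± 0.05 on the log2 scale (adjusted p = 0.0242). The 2 other tested heat shock factors and regulators were not called, and HSF2 had a mean of 0.05 ± 0.06 (adjusted p = 0.403).

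**Figure D4:**
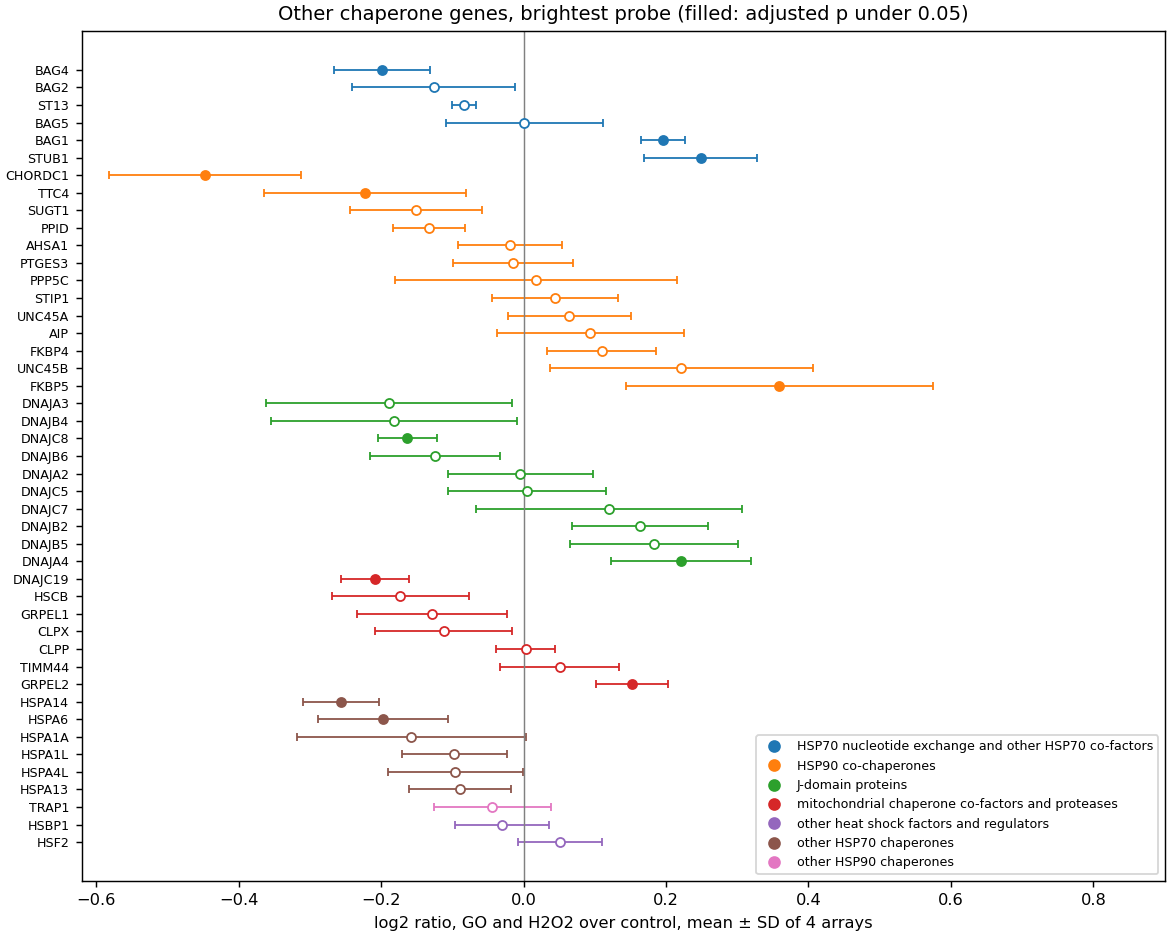
Mean log2 ratio of treated over control signal with its SD over 4 arrays (horizontal axis) for the brightest probe of 45 other chaperone genes (vertical axis), coloured by class and filled where the adjusted p was under 0.05. The 7 filled points below 0 and the 5 above 0 are spread over the classes, and the 6 other HSP70 genes all lie below 0.

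Of 8139 other named genes compared at their brightest probe, DNAJC21, TIAL1 and DUS4L had array ratios most like those of HSP90AA1, with root mean square differences of 0.0170, 0.0240 and 0.0289 log2 units over the 4 arrays. Their means were −0.27 ± 0.03, −0.27 ± 0.05 and −0.31 ± 0.04. A further DNAJC21 probe had a mean of −0.19 ± 0.08 (limma adjusted p = 0.0373). A further DUS4L probe was closer to no change, with −0.10 ± 0.06 (adjusted p = 0.153). DNAJC21 is a J-domain protein of ribosome maturation that was not in the wider list, TIAL1 is an RNA-binding protein, and DUS4L resembles tRNA-modifying enzymes. The member closest to HSP90AA1 was HSPH1, with a difference of 0.0816 and rank 132.

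The markers of the labelled cell type were checked on the same arrays. Of 11 muscle lineage markers, 10 had a probe and were tested, and PAX7, the marker of resting satellite cells, had no probe. Of the 10, 6 were called higher and 0 lower, with a median ratio of 0.29. For this and the following lists, the shares over all tested probes were 9.49% higher and 7.59% lower. These shares count probes and not genes, and the marker lists were chosen with earlier results of these data known. The log2 of the summed signal of the 10 markers was 18.2 to 18.3 in the control channel and 18.5 to 18.7 in the treated channel. Among fibroblast and connective tissue markers, 1 of 4 tested was higher, with a median of 0.26. The log2 of their summed signal was 18.2 to 18.5 in the control channel against 18.5 to 18.7 in the treated channel. Of the leukocyte markers CD68 and CD14 were tested, and 1 of the 2 was lower. None of the 3 adipocyte, 4 endothelial and 4 Schwann cell and neuron markers with a probe passed the filter on dim probes (0 tested in each list). The part of the markers' shift in the chaperone ratios was not tested.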

How the data were processed

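The authors extracted spot intensities of 4 two-colour arrays with Agilent Feature Extraction version 10.10.1.1, and the deposited files hold mean, background and processed intensities and a log10 ratio of red over green. The series matrix of the authors repeats these log10 ratios. Here mean intensities were corrected against background medians with normexp (offset 50) and loess-normalised within each array. Control and outlier-marked spots (7 to 16 gene spots per array) were left out, and spots of a probe were averaged. The log2 signals of the channels come from a further Aquantile step between the arrays, applied to the loess-normalised values. A probe was tested when 1 of the channels, red or green, was well above background on each of the 4 arrays and no ratio was missing.

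The mean log2 ratio was tested against 0 with limma 3.58.1 (R 4.3.3, lmFit and eBayes, two-sided) and Benjamini-Hochberg adjustment over 24229 probes (threshold 0.05). The scripts were tested on simulated data. The number of arrays limits the precision.

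The chaperone genes, the wider list and the markers were chosen with earlier results of these data known. All member probes are named, and a gene's value is that of its brightest tested probe. From the wider list, the gene with the smallest p of each class and at most 8 called genes by smallest p are named. The 3 genes most like HSP90AA1 were taken by root mean square difference. Clone and transcript names were left out there, and the rule that recognises them was narrowed after the first result had been seen, because it had also dropped gene symbols. Gene names and EquCab1 positions are those of the array annotation. Exons and UTRs were not assigned. The alternatives were other background, normalisation, filter and GC settings, Agilent's processed signals, the series matrix, array weights, a limma fit with trend and robust options, the methods' t-test, an unpaired fit and leaving out each array.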

Additional observations from a re-analysis of the deposited data

Results flagged for a closer look

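Of 44 probes checked, 2 had an array set apart from the others by Dixon's test. In both, the gap to the nearest other array, divided by the range over the arrays, was above Dixon's 95% critical value for 4 values. Both were HSP90AB1 probes with replicate 4 as the lowest array. A_69_P117839 had a ratio of −0.13 there, against −0.06 to −0.05 on the other arrays. A_69_P117838 had −0.16 there, against −0.07 on each of the other arrays. The 2 probes share 59 of 60 bases, so that they are nearly the same measurement. Chance flags about 1 in 20 sets.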

How the results depend on the processing

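The number of probes called over all probes, 4137 in the fit as reported, was 12 with median centring, 594 in the fit without pairing of the channels by array (no replicate block), 5 by the methods' t-test, and 6930 by that t-test before adjustment. Leaving out each array gave 0 (without replicate 4, with 6694 at an unadjusted p under 0.05) to 3898 (without replicate 2); without replicate 1 the count was 2 and without replicate 3 it was 38. The 11 chaperone probes became 6 from the series matrix as well as from Agilent's processed signals, 5 with normexp offset 0, 7 with GC correction, 18 with the unadjusted t-test, and 0 with median centring, without the replicate block (13 unadjusted) and with the methods' t-test (18 unadjusted). They numbered 0 to 5 with each array left out, and 5 sites with overlapping probes averaged, an alternative chosen after seeing the data. The other settings gave 9 to 15. The 12 genes of the wider list became 0 with median centring, without the replicate block and with the methods' t-test (2, 13 and 16 unadjusted), and 0 to 12 with each array left out. The median of the 7 genes, −0.18, was −0.10 with median centring, −0.15 over all probes of a gene, and −0.22 (without replicate 3) to −0.17 with each array left out. With median centring 7 probes reversed: HSP90AB1 A_69_P117840 (0.13), A_69_P117839 (0.12), A_69_P117838 (0.10), A_69_P117836 (0.041), A_69_P117837 (0.0064) and A_69_P001656 (0.0067), and HSPA8 A_69_P000696 (0.016). HSPD1 A_69_P042787 ran from −0.031 (without replicate 3) to 0.064 (without replicate 4) with each array left out. Values near 0 also reversed for DNAJB1 A_69_P069686 (0.0013 with a running median over signal, and −0.039 to 0.0098 with each array left out) and HSF1 A_69_P119396 (−0.078 with processed signals and the series matrix, −0.013 with no background correction, −0.0069 with median centring, −0.0048 with array weights, and −0.033 to 0.074 with each array left out). Causes were not tested. The channels of an array pair by hybridisation, so that the fit without the replicate block is given only for comparison.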
